A study of Mus musculus with 7 samples.

Results

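Upp1, Uck1, Uck2, Tymp, Cda and Dhodh encode 6 enzymes that recycle, break down or make pyrimidine nucleosides and bases. They were taken by symbol from the 33696 genes listed in single-cell RNA libraries of mouse malignant peripheral nerve sheath tumors, and all 6 were found. The libraries came from 7 tumors, 4 irradiated and 3 control. Each tumor grew from JW23.3, a male mouse tumor line knocked out for Nf1 and Trp53, placed under the skin of female wildtype C57/B6 mice aged 5 to 6 weeks. The mice were randomized on day 7, the irradiated group then received 5 daily fractions of 2 Gy to the tumor with lead shielding elsewhere, the control group did not, and all tumors were taken on day 21. All 7 tumors are therefore grafts of 1 line, and each library holds the cells of 1 tumor after papain digestion. A 3′ droplet assay (10x Genomics) counted unique molecular identifiers (UMIs), so that each UMI stands for 1 captured RNA molecule. The libraries held 2859 to 8452 cells with a median of 6058.5 to 17930.5 UMIs per cell, and 34300 of 39537 cells were retained.

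Pyrimidine nucleotides are made from small precursors (the de novo route) or rebuilt from nucleosides taken up or released inside the cell (salvage). Uridine phosphorylase 1 (Upp1, ENSMUSG00000020407) splits uridine into uracil and ribose 1-phosphate, which can feed sugar metabolism, and it is known in macrophages and in tumors short of glucose. Thymidine phosphorylase (Tymp, ENSMUSG00000022615) does the same to thymidine, and cytidine deaminase (Cda, ENSMUSG00000028755) turns cytidine into uridine. The uridine-cytidine kinases Uck1 (ENSMUSG00000002550) and Uck2 (ENSMUSG00000026558) commit these nucleosides to nucleotide synthesis by adding a phosphate. Dihydroorotate dehydrogenase (Dhodh, ENSMUSG00000031730) is the mitochondrial enzyme of the de novo route and the target of leflunomide and brequinar.

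Cells were assigned to types by marker genes, none of them a member, and the tumor gate also required that Xist, which the cells of the female hosts make, was not found. The tumor gate held 14307 cells (41.7% of those retained), the macrophage gate 11472 (33.4%), the T/NK gate 1309 (3.82%) and the endothelial gate 430 (1.25%). The median was 22995 UMIs per cell in the tumor gate, 6717.5 in the macrophage gate and 3229 in the T/NK gate. Of the 14 tumor markers, 8 were found in at least 25% of tumor-gate cells, while Igf2, Peg3, Ngfr and the Schwann lineage factor Sox10 were found in under 1%. Levels below are the UMIs of a gene per 1000000 UMIs (CPM), summed over all cells of a gate in a tumor. The 3 control tumors are always given in the order 1, 2, 3 and the 4 irradiated tumors in the order 1, 2, 3, 4.

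The windows before the start sites of Upp1, Uck2 and Cda are shown because Upp1 and Cda rose together in the tumor-cell scores below, and Upp1 and Uck2 moved in the same direction in each macrophage score. They are the 250 bases before the first listed start of each gene in RefSeq (GRCm38.p6), 5′ to 3′ on the gene's strand, and capitals mark each match to the GC box (GGGCGGG, or CCCGCCC on the other strand) and, in Upp1, the AP-1 motif (TGAGTCA).
Upp1, chr11:9117758-9118007, plus strand: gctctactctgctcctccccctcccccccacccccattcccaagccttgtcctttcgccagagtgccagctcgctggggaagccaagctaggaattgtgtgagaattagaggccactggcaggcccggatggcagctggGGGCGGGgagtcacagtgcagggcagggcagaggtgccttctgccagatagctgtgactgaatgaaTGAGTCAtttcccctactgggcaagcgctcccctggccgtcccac
Uck2, chr1:167285128-167285377, minus strand: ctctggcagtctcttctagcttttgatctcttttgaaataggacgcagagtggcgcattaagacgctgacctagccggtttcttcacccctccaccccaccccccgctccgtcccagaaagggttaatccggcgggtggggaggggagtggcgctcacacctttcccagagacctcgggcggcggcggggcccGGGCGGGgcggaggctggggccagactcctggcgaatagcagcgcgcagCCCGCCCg
Cda, chr4:138367956-138368205, minus strand: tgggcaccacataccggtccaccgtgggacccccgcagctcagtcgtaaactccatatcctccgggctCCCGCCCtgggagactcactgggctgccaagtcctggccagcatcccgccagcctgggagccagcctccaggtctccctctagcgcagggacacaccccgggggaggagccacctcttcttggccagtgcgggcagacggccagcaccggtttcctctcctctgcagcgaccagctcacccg

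Counted from the start site, the Upp1 window held the AP-1 letters at position -45 and a GC box at -111, the Uck2 window held GC boxes at -57 and -8, and the Cda window held a GC box at -182. Upp1 has 3 listed starts. Counted from start 2, the same AP-1 letters lie at -140 and the GC box at -206, and the window of start 3 held none of the motifs searched. Both strands were searched, and the motifs searched do not overlap each other in these windows. Of 32851 promoter windows of the same length, 23.4% held the GC box and 4.46% held the AP-1 letters. The hypoxia response core ACGTG was held by 16.6% of all windows and the E2F motif TTTCGCG by 0.703%, and neither is among the letters of the member windows. CCAAT was held by 33.8% of all windows, and by that of Tymp among the members. These matches describe letters only.

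Upp1, the phosphorylase of uridine, was high in endothelial cells, lower in tumor cells and low in most macrophages and T/NK cells. In the tumor gate it was measured at 11.5, 18.0 and 15.7 CPM in the control tumors and at 25.3, 9.19, 28.4 and 35.6 CPM in the irradiated tumors. In the macrophage gate it was measured at 4.18, 0.806 and 0.947 CPM in the control tumors and at 0.603, 1.58, 4.77 and 16.5 CPM in the irradiated tumors. The macrophages of irradiated tumor 4 stood above those of the other 6 tumors, which spanned 0.603 to 4.77 CPM. In the T/NK gate the 7 tumors spanned 4.59 to 12.8 CPM, from only 44 UMIs in 26 of 1309 cells. The highest of these values, in irradiated tumor 1, came from 9 UMIs in 1 cell.

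The endothelial level of Upp1 was seen only after the values were known and was not tested. It was 187 ± 77.0 CPM (SD, n = 6 tumors with at least 20 endothelial cells), from 112 to 323 CPM, and did not overlap the range of the tumor gate. Upp1 UMIs were found in 225 of 430 endothelial cells (52.3%), against 16.5% of tumor cells, 2.21% of macrophages and 1.99% of T/NK cells. Cells with at least 3000 UMIs were also thinned to 3000, and shallower cells were left out. The mean share over tumors was then 34.3% in the endothelial gate, 3.76% in the tumor gate, 1.09% in the macrophage gate and 1.70% in the T/NK gate. The order of endothelial above tumor cells was thus also seen at equal depth.

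**Figure D1:**
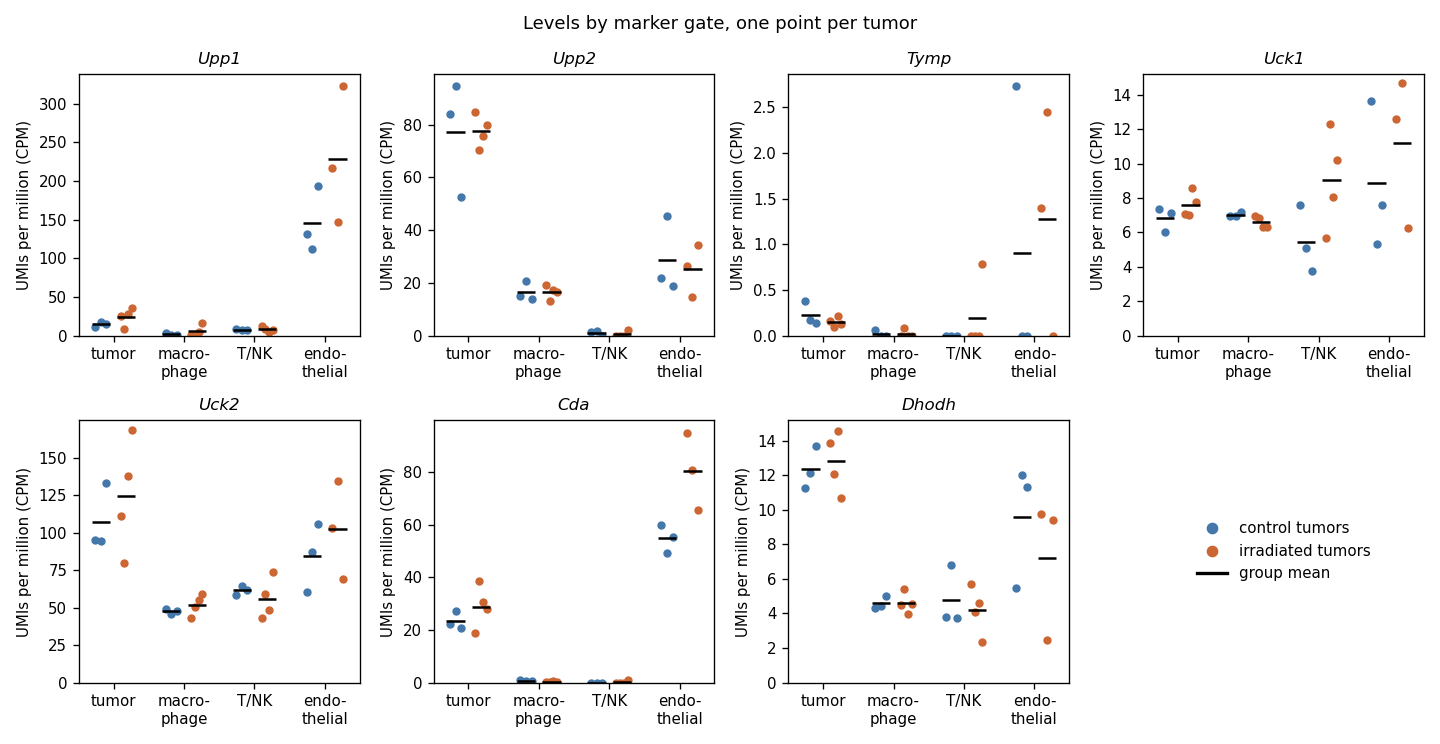
Level of the 6 members and of Upp2 in the tumor, macrophage, T/NK and endothelial gates, as CPM on a linear axis. There is 1 point per tumor and gate, with irradiated and control tumors in separate colors. Upp1 and Cda sit highest in the endothelial gate, and the Upp1 points of the macrophage gate spread from 0.603 to 16.5 CPM.

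Cda, the deaminase, had its highest mean in endothelial cells, followed by tumor cells and fibroblasts, and few UMIs in macrophages and T/NK cells. In the tumor gate it was measured at 22.3, 27.1 and 20.6 CPM in the control tumors and at 18.7, 38.5, 30.5 and 27.9 CPM in the irradiated tumors. In the endothelial gate it reached 67.8 ± 17.1 CPM (SD, n = 6), from 49.4 to 94.96 CPM, above every tumor-gate value. Fibroblasts held 5.41 to 55.8 CPM (n = 5), a range that overlapped that of tumor cells, and pericytes held 7.07 ± 9.82 CPM (SD, n = 6). Neither of these gates set a limit on tumor markers. The macrophage gate held 50 Cda UMIs in 50 cells (0.436% of its cells) and the T/NK gate held 1. Summed over tumors, the tumor-gate level was 47.3-fold that of macrophages (95% exact interval 35.9 to 63.8) and 135-fold that of T/NK cells (24.2 to 5328), intervals that cover counting error only.

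The ratio of Upp1 to Cda UMIs differed between gates. The tumor gate held 7603 Upp1 UMIs beside 9518 of Cda. The macrophage gate held 458 Upp1 UMIs beside 50 of Cda and the endothelial gate 634 beside 236. In the macrophages of irradiated tumor 4, where Upp1 was highest, Cda was 0.176 CPM, the summed tumor markers were 34.4 CPM and the summed endothelial markers were 17.4 CPM. Across the 7 tumors, the macrophage gate carried 34.4 to 127 CPM of tumor markers, against 5379 to 6948 CPM in the tumor gate, and 12.8 to 22.4 CPM of endothelial markers, against 4485 to 5594 CPM in the endothelial gate. Irradiated tumor 4 was at the low end of the first of these ranges and inside the second.

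Uck2, a uridine-cytidine kinase, was found in every gate, with the highest means in dendritic and tumor cells. In the tumor gate it was measured at 94.9, 94.5 and 133 CPM in the control tumors and at 111, 80.0, 138 and 168 CPM in the irradiated tumors. In the macrophage gate it was measured at 49.2, 45.6 and 47.5 CPM in the control tumors and at 42.9, 50.6, 55.1 and 58.9 CPM in the irradiated tumors. No macrophage value reached the lowest tumor-gate value. T/NK cells spanned 42.8 to 73.9 CPM and overlapped with macrophages. Dendritic cells held 165 ± 11.6 CPM (SD, n = 3 tumors with at least 20 such cells), a range that overlapped that of tumor cells.

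Uck1, the other kinase, had overlapping ranges in tumor cells, macrophages and T/NK cells. It was 7.28 ± 0.776 CPM (SD, n = 7) in tumor cells and 6.79 ± 0.326 CPM (n = 7) in macrophages. In T/NK cells it spanned 3.75 to 12.3 CPM, from only 44 UMIs. The mean of Uck1 was 11.2 CPM in pericytes and 10.01 CPM in endothelial cells, both overlapping the tumor gate. In dendritic cells it was 2.93 CPM (n = 3), from 0 to 5.62 CPM. These dendritic sums held only 237180 to 355588 UMIs of all genes, so the values rest on very few Uck1 UMIs and no order is read from them. Dhodh, the de novo enzyme, was measured in the tumor gate at 11.3, 12.2 and 13.7 CPM in the control tumors and at 13.9, 12.1, 14.6 and 10.7 CPM in the irradiated tumors. Macrophages held 3.95 to 5.41 CPM of Dhodh and T/NK cells 2.36 to 6.80 CPM, both ranges wholly below that of tumor cells. Dhodh rested on only 23 UMIs in T/NK cells.

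Tymp was hardly detected in any gate. It gave 110 UMIs in all cells, of which 77 were in tumor cells (0.0995 to 0.377 CPM over the 7 tumors), 2 in macrophages, 1 in T/NK cells and 3 in endothelial cells. The tumor-gate level was 9.57-fold that of macrophages (95% exact interval 2.56 to 80.5) and 1.09-fold that of T/NK cells (0.190 to 43.6), the latter not distinguishable at this depth. Tymp passed the filter on low counts in no comparison below. Its gene overlaps Ncaph2 on the opposite strand and Sco2 on its own, Uck1 overlaps Pomt1 and Uck2 overlaps Gm37982, both on the opposite strand, so counts of these members could include or lose reads of a neighbor.

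The differences between cell types were tested with edgeR (quasi-likelihood, tumor as a block, Benjamini-Hochberg adjusted p over all genes tested). Between macrophages and tumor cells 84.2% of 16945 genes were called (39.8% higher in macrophages, 44.4% lower), so that a call alone says little, and all 5 members tested were among them. Cda was lower in macrophages by a log2 difference of -5.18 ± 0.28 (SE, adjusted p = 1.19e-08) and Upp1 by -2.23 ± 0.46 (adjusted p = 8.98e-04). Cda did not pass the filter on low counts in macrophages alone and was tested here through the tumor gate. Dhodh differed by -0.99 ± 0.12 (adjusted p = 9.16e-06) and Uck2 by -0.73 ± 0.11 (adjusted p = 1.04e-04). The median of the 5 members was -0.99, beside -0.10 over all genes tested.

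Uck1 had no stable direction between macrophages and tumor cells. With the trimmed mean of M-values (TMM) scaling it was called higher in macrophages, at 0.37 ± 0.10 (edgeR adjusted p = 0.00508), and on library totals it was lower by -0.10 (adjusted p = 0.402). This change of scaling moved the median over all genes from -0.10 to -0.57, and the share of calls that were higher in macrophages from 47.3% to 34.0%. The other 4 members kept their direction and their calls on library totals.

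Between T/NK and tumor cells 70.9% of 16732 genes were called (27.7% higher in T/NK cells, 43.1% lower), and 4 of the 5 members tested were lower in T/NK cells by edgeR. Upp1 differed by -1.42 ± 0.26 (SE, adjusted p = 2.48e-05), Uck2 by -1.07 ± 0.14 (adjusted p = 1.75e-07) and Dhodh by -1.64 ± 0.27 (adjusted p = 6.07e-06). Cda was also called (edgeR adjusted p = 1.68e-13), but the T/NK gate held only 1 Cda UMI. Cda passed the filter on low counts through the tumor gate, so that call adds nothing to the ratio of UMIs above, which gives its size. Upp1, Uck1 and Dhodh did not pass that filter in T/NK cells alone either. Uck1 was not called, at 0.00 ± 0.27 (adjusted p = 0.998).

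Between T/NK cells and macrophages 67.9% of 14174 genes were called by edgeR (29.6% higher in T/NK cells, 38.3% lower) and none of the 4 members tested was. Uck1 differed by -0.15, Uck2 by -0.16 and Dhodh by -0.47, and Uck1 and Uck2 changed sign to 0.21 on library totals. That scaling moved the median over all genes from -0.11 to 0.26 and the share of calls that were higher in T/NK cells from 43.5% to 58.9%. Upp1 was higher in T/NK cells by 0.86 ± 0.74 (adjusted p = 0.335), a value that single libraries moved. It was 1.71 (adjusted p = 0.00379) without irradiated tumor 4 and 0.40 (adjusted p = 0.556) without irradiated tumor 1, and with DESeq2 on all tumors it was 1.54 (adjusted p = 0.0218).

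**Figure D2:**
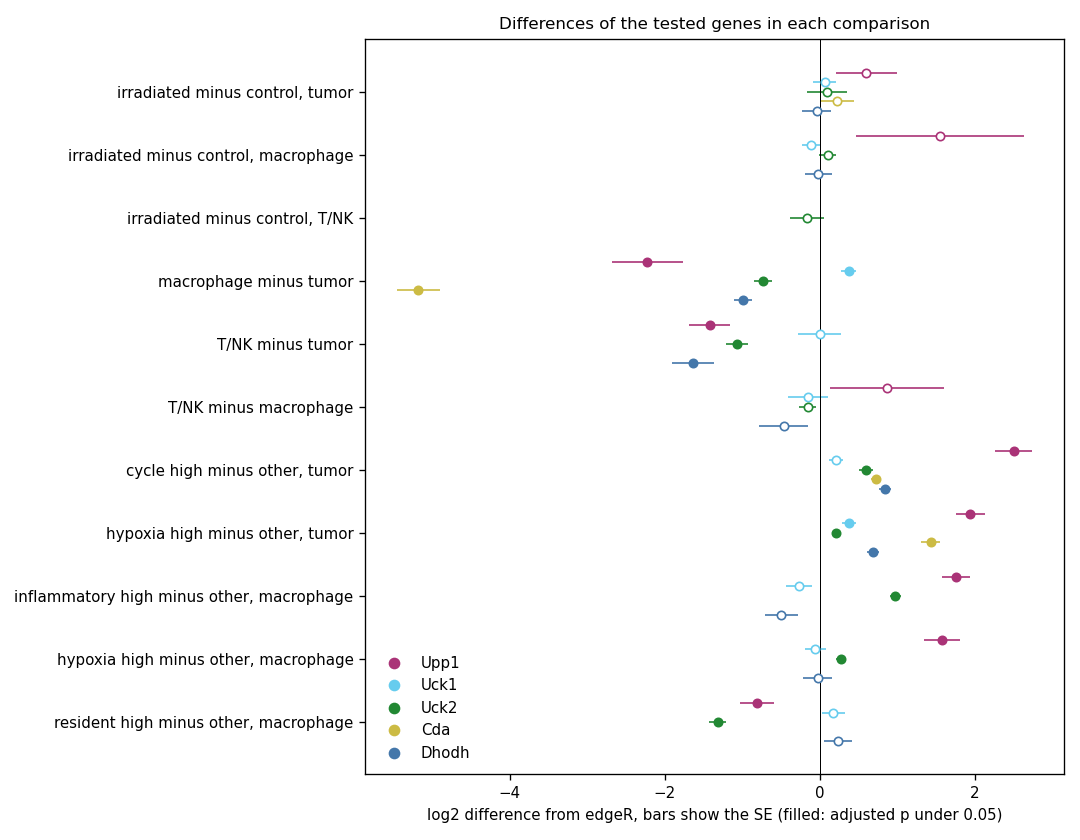
Log2 differences of the tested members with their SE for the irradiation, cell type and score comparisons, with filled points for an edgeR adjusted p under 0.05. Cda between T/NK and tumor cells is not drawn, nor are the irradiation differences compared between gates. The irradiation differences scatter around 0 with no filled point, while Cda between macrophages and tumor cells is the largest cell type difference drawn.

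The study asked what irradiation leaves behind in the cells of these tumors. Upp1 in tumor cells averaged higher in irradiated tumors, with irradiated tumors 1, 3 and 4 above all 3 controls and irradiated tumor 2 below them. The difference of 0.60 ± 0.40 (log2, SE) was not called (edgeR adjusted p = 1.00, exact two-sided permutation p = 0.4 over 35 splits, where 0.0286 is the smallest p possible). For Cda the difference was 0.22 ± 0.22, for Uck2 0.10 ± 0.26, for Uck1 0.07 ± 0.15 and for Dhodh -0.04 ± 0.19. The Cda difference ranged from 0.0420 without irradiated tumor 2 to 0.37 without irradiated tumor 1. The groups overlapped for each of the 5 genes.

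In macrophages the Upp1 difference of 1.55 ± 1.09 (edgeR adjusted p = 0.844, exact permutation p = 0.514) was 0.18 without irradiated tumor 4 and 2.73 without control tumor 1. Of the 1481 macrophages of irradiated tumor 4, 131 held 282 of the 458 Upp1 UMIs of the whole gate. Uck2 differed by 0.10 ± 0.11, Uck1 by -0.11 ± 0.12 and Dhodh by -0.02 ± 0.17. The Uck1 values of the irradiated tumors were 6.97, 6.82, 6.33 and 6.33 CPM, beside 6.94, 6.93 and 7.17 CPM in the controls, so these groups overlapped as well. In T/NK cells only Uck2 passed the filter on low counts, at -0.16 ± 0.22.

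These 10 member tests had no call, against a background of 0% in each gate. By edgeR 0 of 17364 genes were called in tumor cells, 0 of 12856 in macrophages and 0 of 7550 in T/NK cells, while an unadjusted p under 0.05 was found for 211, 643 and 437 genes, and DESeq2 called 0, 3 and 0. The median difference of the members tested was 0.10 in tumor cells and 0.04 in macrophages, beside -0.02 and -0.01 over all genes.

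The irradiation difference was also compared between gates, where edgeR called 0 of 17358 genes for each pair, against 740 (macrophages minus tumor cells), 870 (T/NK minus tumor cells) and 781 (T/NK cells minus macrophages) at an unadjusted p under 0.05, where chance gives about 1 in 20. For macrophages minus tumor cells the difference in irradiation response was 0.64 ± 0.93 for Upp1, with -0.16 without irradiated tumor 4 and 1.91 without control tumor 1. It was -0.18 ± 0.25 for Uck1, -0.01 ± 0.21 for Uck2 and 0.02 ± 0.26 for Dhodh. Cda had the lowest unadjusted p of the members, 0.0179, at -1.32 ± 0.51 (edgeR adjusted p = 0.984), a fitted value that rests on the 50 Cda UMIs of the macrophage gate. For T/NK minus tumor cells it was -0.72 ± 1.54 for Upp1, 0.58 ± 0.46 for Uck1, -0.29 ± 0.26 for Uck2 and -0.25 ± 0.56 for Dhodh. For T/NK cells minus macrophages it was -1.36 ± 1.61 for Upp1, 0.77 ± 0.47 for Uck1, -0.28 ± 0.26 for Uck2 and -0.27 ± 0.57 for Dhodh. Cda was not called in either T/NK comparison, and no fitted value is given for its 1 UMI in that gate. Of the members, only Uck2 passed the filter on low counts in T/NK cells alone. Upp1, Uck1 and Dhodh entered these fits through the other gates, so their T/NK values rest on few UMIs and are not read.

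The libraries were also divided into technical sets, by the best of 63 splits on cell number, depth, genes per cell, mitochondrial share and stress genes. Irradiated tumor 1 and control tumors 2 and 3 formed set 1, and irradiated tumors 2, 3 and 4 with control tumor 1 formed set 2. This left a share of 0.545 of the spread within sets, against 0.594 for the next best split. The sets overlapped in genes per cell, mitochondrial share and stress genes, and were apart only in cell number and depth. In tumor cells the Upp1 difference was 0.52 within set 1 and 0.91 within set 2, that of Uck2 was -0.08 and 0.41, and that of Cda was -0.40 and 0.56. In macrophages the Upp1 difference was -0.46 within set 1 and 0.27 within set 2. Both sets had the same sign for 5 of the 10 member values, namely Upp1, Uck1 (0.03 and 0.11) and Dhodh (0.04 and 0.17) in tumor cells, Uck1 in macrophages (-0.04 and -0.10) and Uck2 in T/NK cells (-0.56 and -0.02). Uck2 (-0.14 and 0.15) and Dhodh (-0.09 and 0.10) in macrophages differed in sign, and each set had a single irradiated or control tumor on one side.

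Within tumor cells, 4 of the 5 members tested rose with cell division, and Upp1 rose most. Cells were called cycle-high when the summed UMIs of 12 cell cycle genes (among them Mki67 and Top2a) per 10000 UMIs lay above the 75th percentile of their own tumor, and 386 cells lay within 10% of that limit. Cycle-high cells held 73.3% of the Upp1 UMIs in 25.01% of the cells. Upp1 in cycle-high cells was 27.8, 41.4 and 30.8 CPM in the control tumors and 57.3, 21.9, 56.2 and 59.6 CPM in the irradiated tumors. In the remaining cells it was 5.13, 3.71 and 7.18 CPM and 7.72, 2.96, 13.3 and 24.1 CPM. Upp1 was higher in cycle-high cells in 7 of 7 tumors, by a ratio of 2.47 to 11.2.

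The edgeR log2 difference of Upp1 with the cycle score was 2.50 ± 0.24 (SE, adjusted p = 1.77e-05), where 73.4% of 16597 genes were called, 34.8% higher and 38.7% lower. Dhodh rose by 0.84 ± 0.08 (adjusted p = 5.06e-07), from a mean of 10.2 to 17.2 CPM, and Cda by 0.72 ± 0.06 (adjusted p = 2.24e-07), from 22.4 to 34.6 CPM. Uck2 rose by 0.59 ± 0.09 (adjusted p = 1.41e-04), from 104 to 142 CPM and in 7 of 7 tumors. Uck1 was not called, at 0.21 ± 0.09 (edgeR adjusted p = 0.0611). It was called with any of irradiated tumors 2, 3 and 4 or control tumors 1 and 2 left out, at 0.26 to 0.28 (adjusted p from 0.0269 to 0.0409). With all deposited cells it was called at 0.30 (adjusted p = 0.0125). The other alternatives left Uck1 uncalled, at values down to 0.11 and with adjusted p up to 0.283 over the edgeR and DESeq2 fits. Its CPM was lower in cycle-high cells in 2 of 7 tumors. Cycle-high cells were also deeper, with a median of 31177 UMIs against 21327, and the part of depth in these differences was not tested.

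A hypoxia score (11 genes found, among them Slc2a1, Vegfa and Car9) divided the tumor cells in the same way. Upp1 in hypoxia-high cells was 17.7, 37.4 and 27.8 CPM in the control tumors and 55.9, 17.7, 53.4 and 63.3 CPM in the irradiated tumors. In the remaining cells it was 8.96, 7.09 and 10.1 CPM and 10.1, 4.82, 16.0 and 23.7 CPM. Each of the 7 tumors showed the higher level in the hypoxia-high cells, which held 63.0% of the Upp1 UMIs. These cells were also deeper, with a median of 29585.5 UMIs against 21501, and the part of depth here was not tested, and 1029 cells lay within 10% of the limit.

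By edgeR, Upp1 rose with the hypoxia score by 1.94 ± 0.19 (log2, SE, adjusted p = 3.84e-05) and Cda by 1.43 ± 0.12 (adjusted p = 4.99e-06), where 63.0% of 16314 genes were called, 31.9% higher and 31.1% lower. Cda went from a mean of 18.2 to 43.5 CPM. Dhodh rose by 0.69 ± 0.08 (adjusted p = 2.16e-06), from 11.1 to 15.8 CPM. Uck1 (0.38 ± 0.09, adjusted p = 0.00224) and Uck2 (0.21 ± 0.05, adjusted p = 0.00270) were called too, and both calls were lost on library totals, at 0.20 (adjusted p = 0.0596) and 0.03 (adjusted p = 0.585). Uck2 had the higher CPM in hypoxia-high cells in only 3 of 7 tumors. On library totals the share of calls that were higher in hypoxia-high cells went from 50.7% to 33.4%.

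Both scores were high in 1457 tumor cells, 2121 were high in the cycle score alone, 2121 in the hypoxia score alone and 8608 in neither. Mean Upp1 was 5.24 CPM in the last class, 22.2 CPM with hypoxia alone, 30.2 CPM with cycle alone and 53.7 CPM with both. The class with both scores exceeded each single class, and each single class exceeded neither, in 7 of 7 tumors. Cda followed hypoxia more than the cycle, at 15.3, 45.5, 27.0 and 42.1 CPM in the same order, and hypoxia alone exceeded cycle alone in 7 of 7 tumors. Dhodh was 9.97, 10.995, 14.2 and 20.1 CPM in that order, with cycle alone above hypoxia alone in 7 of 7 tumors. Uck2 was highest with cycle alone, at 157 CPM, against 103, 109 and 127 CPM for neither, hypoxia alone and both.

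**Figure D3:**
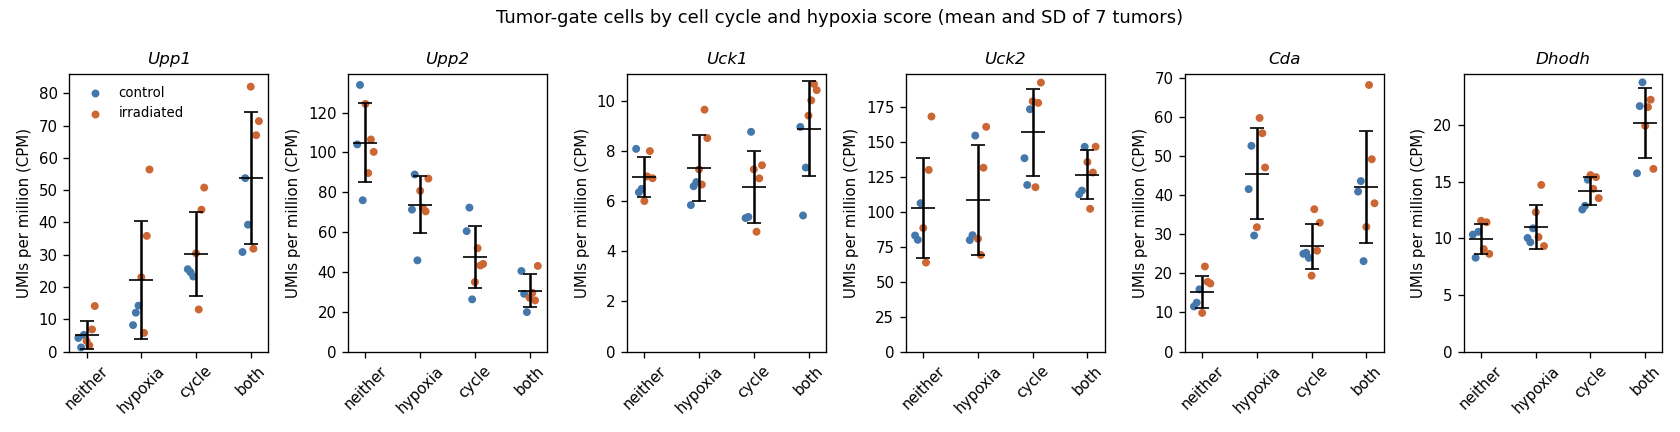
Level of members and of Upp2 in tumor-gate cells high in neither score, in hypoxia alone, in cycle alone or in both. Values are CPM with 1 point per tumor, and bars give the mean and SD. Upp1 is lowest with neither score and highest with both in each of the 7 tumors, and the order is the reverse for Upp2.

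Upp2 (ENSMUSG00000026839), the second uridine phosphorylase and not a member, went the other way and is named because it carries out the same reaction as Upp1. It averaged 105 CPM with neither score high, 73.7 CPM with hypoxia alone, 47.6 CPM with cycle alone and 30.6 CPM with both. Cycle-high cells held 38.8 CPM against 97.7 CPM in the remaining cells, a log2 difference of -1.27, and hypoxia-high cells 51.1 against 90.4 CPM, a difference of -0.66, both called by edgeR. The level was lower in the high cells in 7 of 7 tumors for each score. Upp2 in the tumor gate spanned 52.7 to 94.6 CPM, in macrophages 13.1 to 20.6 CPM, and T/NK cells held 5 UMIs.

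Within macrophages, Upp1 and Uck2 rose with an inflammatory score and fell with a resident score. The inflammatory score summed 12 genes (among them Arg1, Nos2 and Il1b), the resident score 12 others (among them Mrc1, Folr2 and Lyve1), and cells were divided as above. Upp1 in inflammatory-high macrophages was 7.91, 1.63 and 2.65 CPM in the control tumors and 1.25, 3.17, 9.64 and 41.0 CPM in the irradiated tumors. In the remaining macrophages it was 3.19, 0.603 and 0.510 CPM and 0.434, 1.16, 3.45 and 11.1 CPM. The inflammatory-high cells were the higher in 7 of 7 tumors and held 44.3% of the Upp1 UMIs of the gate. The means were 9.61 and 2.91 CPM, and 4.38 and 1.56 CPM without irradiated tumor 4. The whole gate held only 7 and 19 Upp1 UMIs in irradiated tumors 1 and 2, and 10 and 14 in control tumors 2 and 3. In those tumors the order of Upp1 by this and the other macrophage scores rests on few UMIs.

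By edgeR, Upp1 rose with the inflammatory score by 1.76 ± 0.18 (log2, SE, adjusted p = 1.13e-06), where 31.5% of 12509 genes were called, 17.7% higher and 13.8% lower. Uck2 rose by 0.97 ± 0.07 (adjusted p = 2.07e-08), from 43.0 ± 5.00 to 77.4 ± 12.5 CPM (SD, n = 7) and in 7 of 7 tumors. Uck1 (-0.27, adjusted p = 0.238) and Dhodh (-0.49, adjusted p = 0.0914) were not called, though Dhodh passed without irradiated tumor 2 (-0.70, adjusted p = 0.0262), on library totals (-0.62, adjusted p = 0.0304) and with the cells split at the median of their own tumor (-0.45, adjusted p = 0.0375). The inflammatory-high macrophages had a median of 5493 UMIs per cell against 7223. On library totals the share of calls that were higher in inflammatory-high cells went from 56.2% to 27.9%.

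The resident score gave the opposite order for both genes. Uck2 was 15.1, 28.0 and 25.1 CPM in resident-high macrophages of the control tumors and 19.3, 22.3, 21.0 and 21.0 CPM in those of the irradiated tumors. In the remaining macrophages it was 59.0, 50.2 and 53.5 CPM and 49.8, 58.9, 65.1 and 73.4 CPM, with no overlap between the 2 sets of values. The edgeR log2 difference was -1.32 ± 0.11 (SE, adjusted p = 8.55e-08) for Uck2 and -0.81 ± 0.22 (adjusted p = 0.00396) for Upp1, where 46.1% of 12593 genes were called, 22.6% higher and 23.5% lower. Upp1 averaged 2.51 CPM in resident-high cells against 4.76 CPM (1.02 against 2.47 CPM without irradiated tumor 4) and was lower in 7 of 7 tumors. Irradiated tumors 1 and 2 and control tumors 2 and 3, with their few Upp1 UMIs, are among these. Uck1 and Dhodh were not called, at 0.18 and 0.23, and on library totals the share of calls that were higher in resident-high cells went from 49.0% to 28.4%.

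With the hypoxia score in macrophages, Upp1 rose by 1.57 ± 0.23 (log2, SE, edgeR adjusted p = 5.21e-05) and Uck2 by 0.28 ± 0.06 (adjusted p = 0.00488), where 10.8% of 12539 genes were called, 6.52% higher and 4.29% lower. Upp1 averaged 8.81 CPM in hypoxia-high macrophages against 2.79 CPM (3.77 against 1.62 CPM without irradiated tumor 4) and was higher in 6 of 7 tumors. The exception was control tumor 3, at 0.287 against 1.15 CPM. Fitted without the tumor as a block, Upp1 lost its call for the inflammatory, resident and hypoxia scores of macrophages, with adjusted p = 0.153, 0.658 and 0.550, and Uck2 lost its call for the hypoxia score, with adjusted p = 0.218. Uck1 and Dhodh were not called, at -0.06 and -0.03. The share of calls that were higher in hypoxia-high macrophages went from 60.3% to 34.0% on library totals.

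**Figure D4:**
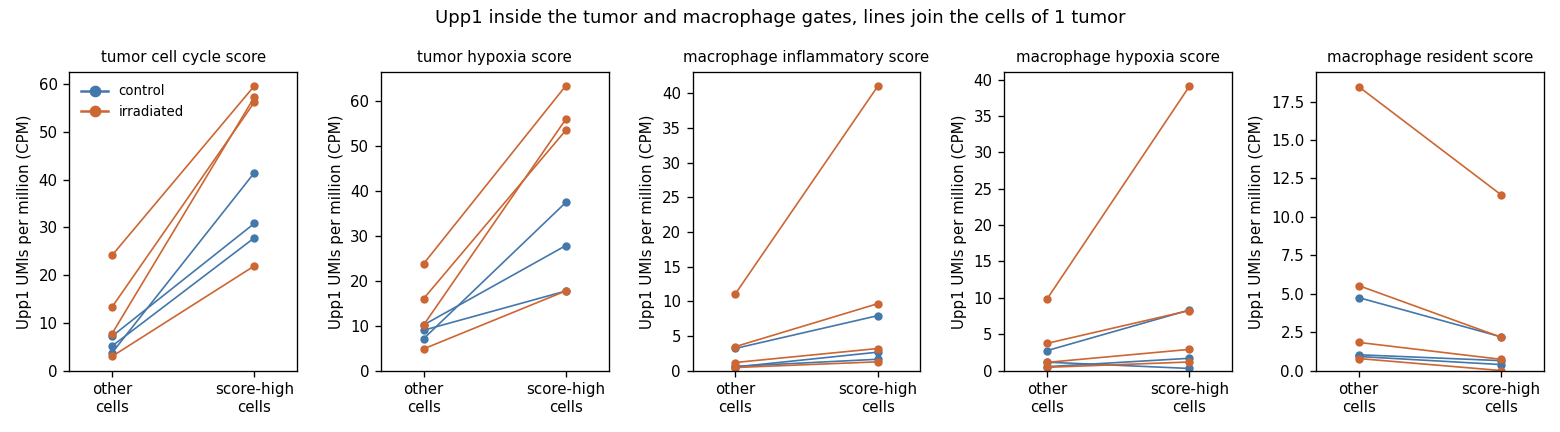
Upp1 level in score-high cells and in the remaining cells of the same gate, as CPM on a linear axis, with a line joining the values of each tumor. The lines rise in 7 of 7 tumors for the tumor cycle, tumor hypoxia and macrophage inflammatory scores, in 6 of 7 for macrophage hypoxia, and fall for the resident score.

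The other genes of pyrimidine metabolism were followed through a list of 43. By edgeR, 21 of the 41 tested were higher in macrophages than in tumor cells, 13 were lower and 7 were not called, beside 39.8% higher and 44.4% lower over all genes. The largest differences were of the nucleoside transporter Slc28a2 (9.99, from 7 UMIs in the whole tumor gate), the ectonucleotidases Entpd1 (9.11) and Nt5e (3.83), and, lower in macrophages, the uracil-degrading Dpyd (-6.26), the deaminase Dctd (-2.67) and the cytidine triphosphate synthase Ctps (-1.98). Of 40 tested between T/NK and tumor cells, 13 were higher in T/NK cells and 20 lower (27.7% and 43.1% over all genes), led again by Slc28a2 (11.37), Entpd1 (7.79) and Nt5e (4.77) and by Upp2 (-6.49), Dpyd (-5.89) and Dctd (-2.73), fitted values in which the T/NK gate held only 5 UMIs of Upp2 and 7 of Dpyd. Between T/NK cells and macrophages 9 of 40 were higher and 18 lower (29.6% and 38.3% over all genes), with Slc28a2 (1.47), Nt5c3b (1.33) and Ctps2 (1.22) at one end and Upp2 (-4.53), the transporter Slc29a3 (-3.85) and the deoxycytidine kinase Dck (-1.86) at the other.

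With the tumor cycle score, 24 of 40 of these genes rose and 10 fell by edgeR, beside 34.8% and 38.7% over all genes. The thymidine kinase Tk1 (4.77) and the ribonucleotide reductase subunit Rrm2 (4.43) rose most, and Dpyd (-1.66), Upp2 (-1.27) and Nt5e (-1.18) fell most. With the tumor hypoxia score 26 of 40 rose and 8 fell (31.9% and 31.1% over all genes), led by Rrm2 (1.70), Nme1 (1.35) and the phosphoglucomutase Pgm1 (1.32) and by Upp2 (-0.66), Nt5e (-0.65) and Dpyd (-0.51). The 2.50 of Upp1 for the cycle score stood below the values of Tk1 and Rrm2, and its 1.94 for the hypoxia score stood above that of Rrm2.

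With the macrophage inflammatory score 8 of 39 genes of this list rose and 14 fell by edgeR, beside 17.7% and 13.8% over all genes. Cmpk2 (1.80), Samhd1 (0.72) and Nt5e (0.70) rose, and Rrm2 (-1.62), Tk1 (-1.61) and the thymidylate synthase Tyms (-1.21) fell. With the resident score 9 of 38 rose and 15 fell (22.6% and 23.5% over all genes), with Nt5m, Tk2 and Upp2 (0.38 each) highest and Rrm2 (-1.49), Nt5e (-1.09) and Tk1 (-0.98) lowest. With macrophage hypoxia 3 of 38 rose, namely Pgm1 (1.20), Nt5e (0.74) and Slc28a2 (0.47), and Prps2 fell (-0.28), beside 6.52% and 4.29% over all genes. For irradiation, 0 of the 39, 39 and 31 genes of the list tested in tumor cells, macrophages and T/NK cells were called by edgeR, and 1, 3 and 1 had an unadjusted p under 0.05.

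Genes whose level followed a member most closely were ranked by Pearson's r over 41 sums of 7 gates, among 12250 genes, as a description in which points share tumors and depth. For Upp1 these were Sh2d5 (r = 0.87), Gm46565 (0.85) and Stmn2 (0.84), and for Cda they were Hoxd4 (0.95), Meox1 (0.91) and Epb41l4a (0.91). For Uck2 they were Sipa1l3 (0.85), Sema7a (0.80) and Ppa1 (0.77). For Uck1 the closest was Ppp5c (0.79) and for Dhodh it was Abcb10 (0.78). Tymp, with its 110 UMIs, reached only 0.63, with Uchl1.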

How the data were processed

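The authors deposited raw UMI counts per gene and cell for each of 7 libraries, which the file headers credit to Cell Ranger 8.0.0 and which were aligned to mm10 per the paper, which names an earlier version. A cell was removed if its UMIs, genes, mitochondrial share or ribosomal share lay over 3 median absolute deviations from the median of its tumor. Cells were gated by numbers of marker genes found (at least 5 tumor markers without Xist, 9 macrophage or 4 T/NK markers, with limits on the others), and the 713 retained cells called as doublets (2.08%, Scrublet) were kept in the main analysis. The pericyte and fibroblast gates required Xist but set no limit on tumor markers. Tumor cells also carry fibroblast markers, with Dcn in 89.7% and Lum in 82.1% of tumor-gate cells. Tumor RNA in the pericyte and fibroblast gates was therefore not excluded. Between 3 and 19 barcodes were shared by each pair of libraries.

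Counts were summed per tumor and gate, or per tumor and score class, with at least 20 cells, and tested with edgeR 4.0.16 in R 4.3.3 (filterByExpr, TMM, robust quasi-likelihood, adjusted p threshold 0.05). The SE of a log2 difference was taken from the quasi-likelihood F statistic. Cell types and score classes of the same tumor were compared with the tumor as a block. The scripts were tested on simulated data. DESeq2 1.42.0, stricter gates, all deposited cells, doublets removed, no low-count filter, a median split of scores, each tumor left out, and library totals were alternatives, of which library totals were added after the data were seen. Members were named in every comparison that tested them, and of the pathway list the 3 largest called differences in each direction, except for 1 value that is not reported here. Members and lists were chosen with earlier results of these data known. The labels call the samples biological replicates and do not name the animals, so p-values measure the spread between these tumors only. Whether intronic reads were counted is not given in the sources used here. No coordinates of genes are given, since 1735 of 33696 identifiers were not in the annotation at hand. Promoter windows are from RefSeq, which held 5 of the 6 members. Python 3.11.15, scanpy 1.11.5, scipy 1.17.1 and matplotlib 3.10.9 were used.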

Additional observations from a re-analysis of the deposited data

Results flagged for a closer look

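Among 59 groups of 4 irradiated tumors in which members were measured, 2 held a tumor far from the other 3, where chance gives about 1 in 20. In cycle-high tumor cells, Upp1 in irradiated tumor 2 was 21.9 CPM, against 56.2 to 59.6 CPM in the other irradiated tumors. In inflammatory-high macrophages, Dhodh in irradiated tumor 2 was 6.35 CPM, against 2.31 to 2.93 CPM in the others.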

How the results depend on the processing

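Of the alternatives for single members, 680 kept direction and call, 47 changed sign, 11 gained a call, 7 lost one and 10 moved with thinning alone. None of the sign changes had an adjusted p under 0.05 under the alternative. For irradiation, on library totals Dhodh was 0.0508 in tumor cells and 0.00680 in macrophages, with stricter gates it was 0.0110 in macrophages, and with a term for the technical sets it was 0.11 and 0.0160. Leaving out 1 tumor gave -0.13 to 0.13 for Dhodh, -0.0522 to 0.38 for Uck2 and -0.0217 to 0.18 for Uck1 in tumor cells and -0.11 to 0.0624 for Dhodh in macrophages. For Uck1 between T/NK and tumor cells the values were 0.0629 (DESeq2), 0.0620 (all deposited cells), 0.0735 (library totals), 0.00571 (stricter gates), 0.00545 (doublets removed), 0.13 (no tumor block) and -0.16 to 0.0853 with 1 tumor left out. On library totals Uck1 was -0.10 for macrophages against tumor cells, and Uck1 and Uck2 were 0.21 for T/NK cells against macrophages. Split at the median, Uck1 was -0.0265 for the resident score and Dhodh 0.26 for macrophage hypoxia, where Dhodh was 0.0395 with stricter gates, 6.56e-04 without the tumor block and -0.15 to 0.0950 with 1 tumor left out. For the difference in irradiation response, macrophages minus tumor cells, Uck2 was 0.00364 without a low-count filter and 0.00684 with stricter gates, and with 1 tumor left out Uck2 spanned -0.20 to 0.11, Dhodh -0.10 to 0.15 and Upp1 -0.16 to 1.91. For members that passed the low-count filter in only 1 of the gates, differences in irradiation response were fitted without alternatives. The cause was not tested.

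Without the tumor block, Upp1 lost its call in macrophages for the inflammatory (1.82, adjusted p = 0.153), resident (-0.59, adjusted p = 0.658) and hypoxia scores (1.73, adjusted p = 0.550), Uck2 lost it for hypoxia in macrophages (0.29, adjusted p = 0.218) and in tumor cells (0.18, adjusted p = 0.430), and the genes called for the 3 macrophage scores numbered 1975, 3751 and 55. The macrophage hypoxia score had 839 calls with DESeq2. The irradiation contrast had 3 calls in macrophages with DESeq2. In T/NK cells it had 93 without a low-count filter, 1 with the technical set and 0 to 10 with 1 tumor left out. Its difference between gates had 186, 111 and 72 calls without that filter (macrophages minus tumor, T/NK minus tumor, T/NK minus macrophages), and 0 to 19, 0 to 1 and 0 to 2 with 1 tumor left out.

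Replicate numbers are shared by the groups, but samples of the same number mostly did not deviate together. Their correlations ran from -0.71 to 0.16, and the only positive value was that of replicate 3 in tumor cells. With so few pairs these values cannot tell whether such samples shared a day or batch, and the labels do not say. With the replicate block no gene was called for irradiation, Upp1 was 0.35 in tumor cells and 0.25 in macrophages, and Uck2 (-0.00844) and Dhodh (0.10) changed sign in tumor cells. Low UMI numbers limit Tymp in every gate, Cda outside tumor and endothelial cells, and Upp1 and Dhodh in T/NK cells.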
